A study of Ovis aries with 16 samples.

Results

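Molecular chaperones and their co-chaperones were followed in liver and skeletal muscle of female sheep, with and without exposure before birth to bisphenol A (BPA), a plasticizer with oestrogen-like activity. Members were chosen by gene symbol: the HSPA, HSPB, HSPD, HSPH and HSP90 genes, the DNAJA, DNAJB and DNAJC genes, the CCT subunits with TCP1, CRYAB, the BAG genes, HSPBP1 and HSPBAP1. A member also had to reach a mean normalized read count of at least 10 in liver or in muscle. Of 28524 named rows in the table, 90 matched by name and 84 met the minimum. They comprised 8 small heat shock proteins (small HSPs), 41 HSP40 genes (4 DNAJA, 11 DNAJB and 26 DNAJC), 14 HSP70 genes with HSPH1 among them, 3 HSP90 genes, 10 chaperonin genes and 8 co-chaperones (BAG1 to BAG6, HSPBP1 and HSPBAP1). HSPE1 and HSPA1B have no row by those names and were not analysed here.

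The 8 animals were Suffolk ewes. The mothers of 4 of them had been given BPA in corn oil under the skin every day, at 0.5 mg/kg, from day 30 to day 90 of gestation, and the mothers of the other 4 had been given corn oil alone. The control animals carried the numbers 902, 908, 924 and 928, and the BPA animals 910, 918, 977 and 984. All were sampled as adults of about 21 months, after 48 hours without food, in the late follicular phase of a cycle synchronized with 2 injections of prostaglandin. Each animal gave 1 liver library (tip of the left lobe) and 1 muscle library (vastus lateralis), so each of the 4 groups held 4 libraries. The libraries were made from ribosome-depleted total RNA of whole tissue. Values are normalized read counts, that is, reads scaled by a size factor of the library. They are not per length, so levels were not compared between genes.

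Chaperones bind proteins that are not yet folded, or that have lost their fold, and keep them from clumping. Small HSPs hold such proteins without using ATP and are abundant in muscle, where they sit on the contractile apparatus. HSP40 proteins deliver clients to HSP70 and start its ATP cycle, BAG proteins and the HSP110 relatives HSPH1, HSPA4 and HSPA4L release the nucleotide so that the cycle can go on, and HSP90 takes over late folding steps of kinases and receptors. The chaperonins are closed chambers: TRiC, built of TCP1 and the CCT subunits, folds actin and tubulin in the cytosol, and HSPD1 works in mitochondria. HSPA5, HSP90B1 and a set of DNAJ proteins do this work in the endoplasmic reticulum (ER), which is extensive in the secretory cells of the liver. Heat and other protein-damaging stress raise a subset of these genes through the transcription factor HSF1.

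Members near the mean minimum were few. DNAJB7 (mean 13.9 in liver, 4.76 in muscle) and CCT6B (18.9 and 3.49) lay just inside it. DNAJB13, whose liver means were 9.01 in controls and 4.99 in BPA animals, lay just outside. DNAJC5G, DNAJC5B, CCT8L2 and HSPB9 lay far outside, with means of 1.2 or less in each tissue, and DNAJB8 was at 0 in every library. The minimum was met in both tissues by 77 members, in liver only by DNAJB3, DNAJB7, DNAJC6, DNAJC22 and CCT6B, and in muscle only by HSPB3 and HSPB7.

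Depth was lower and more uneven in liver. In units of 1e6 reads (M), the control livers held 4.39 to 19.28, the BPA livers 4.66 to 17.92, the control muscles 16.16 to 28.54 and the BPA muscles 15.15 to 26.54. The control liver 902 (4.39) and the BPA livers 918 (4.66), 977 (7.27) and 984 (10.64) lay under 15 M, and the other 4 livers held 17.92 or more. Marker genes of the labelled tissue were present in every library: 9 muscle-fibre genes summed to 2929000 or more in muscle and to at most 457.8 in liver. The sum of 7 hepatocyte genes was 1068000 to 1203000 in the control livers 908, 924 and 928 and in the BPA liver 910 (1087000), but 32870 in 902, 289900 in 918, 200200 in 977 and 177600 in 984. In muscle the same sum was 3873 to 12680, and the highest muscle was that of animal 902. The liver 902 also held a fibroblast and stellate cell marker sum of 115100, against 2374 to 7715 in the other livers. By depth and hepatocyte sum, the control liver 902 thus lay with 3 BPA livers and the BPA liver 910 with 3 control livers. Whether the labels or the RNA quality of 902 and 910 bear on the liver differences was not tested, and every liver difference rests on those labels as given. Liver results are therefore given by library, and with and without the libraries that stand apart. Chaperone genes varied about as much as other genes in liver and less in muscle: the highest of 8 libraries was 3.92 times the lowest at the median member in liver (3.93 over all genes) and 1.42 times in muscle (1.57 over all genes). The small HSPs varied most between livers, with a median ratio of 10.94.

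Most chaperone genes differed between the tissues, and more of them were higher in muscle. Liver and muscle were compared in a fit over all 16 libraries (limma on log2(value + 1), with Benjamini-Hochberg adjustment over all genes tested and a threshold of 0.05 for the adjusted p). Of the 77 members that met the mean minimum in both tissues, 16 were higher and 44 lower in liver, with a median log2 difference (liver minus muscle) of -0.66. Among all 13677 genes that met it in both tissues, 68.8% passed, 33% higher and 35.8% lower, with a median of -0.025. These shares are the background for the group and list counts between tissues given below. Over the 83 members tested, 66 passed (20 higher and 46 lower), against 71.4% of all 15995 genes tested (36.1% higher and 35.3% lower). The 8 liver values all lay above or all below the 8 muscle values for 39 members (13 above and 26 below), against 41.6% of all genes (20.4% above and 21.2% below). Where no other tool is named, an adjusted p is limma's. P-values within a tissue measure the spread between these animals. Those of a 16-library fit pool the spread of both tissues and, unless the animal is a block, take an animal's libraries as independent. In whole tissue, fewer cells of a type and less RNA per cell cannot be told apart.

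**Figure D1:**
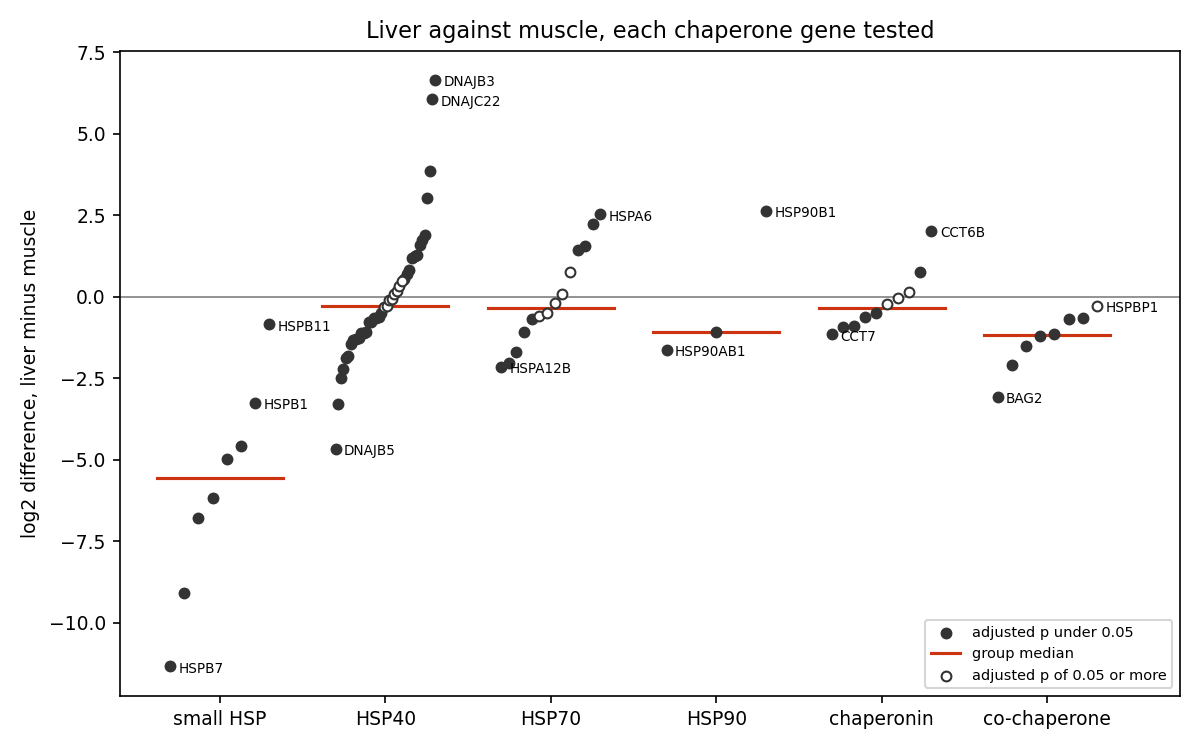
Log2 difference between liver and muscle (y axis) for each of the 83 chaperone genes tested, those that met the mean minimum in 1 tissue only included, by group (x axis); filled points passed the adjusted p threshold of 0.05, open points did not, and the red line is the group median. All 8 small HSPs lie below 0, while the HSP40, HSP70, HSP90 and chaperonin groups hold genes on both sides.

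Small HSPs were the group furthest toward muscle. HSPB3 and HSPB7 met the mean minimum only through muscle, so they had to differ and are described without a test. Of the 6 that met it in both tissues all were lower in liver, with a median log2 difference of -4.77, and HSPB11 was the one whose livers and muscles overlapped. HSPB7, a small HSP of heart and skeletal muscle, ranged from 0 to 5.65 in liver (median 1.63) and from 4388 to 10360 in muscle (median 6109), a log2 difference of -11.34. HSPB3 had 2.52 or less in every liver, with a median of 0, and 652 to 1188 in muscle (median 799). Its partner in a muscle-specific complex, HSPB2, ranged from 5.65 to 63.1 in liver (median 25.0) and from 601 to 1023 in muscle (median 814). The log2 difference was -9.09 for HSPB3 and -4.97 for HSPB2. With so few reads in liver, the size for HSPB7 and HSPB3 depends on the pseudocount: with 10 in place of 1 it was -9.10 and -6.30.

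CRYAB (alpha-B crystallin), which binds desmin and other cytoskeletal filaments, ranged from 16.7 to 876 in liver (median 82.1) and from 7456 to 12120 in muscle (median 9888). The log2 difference was -6.80 ± 0.417 (SE, adjusted p = 3.91e-10); DESeq2 gave CRYAB no adjusted p. HSPB6 (HSP20), a small HSP of striated and smooth muscle, ranged from 25.0 to 1217 in liver (median 137) and from 7823 to 11770 in muscle (median 9799), a difference of -6.16 ± 0.436. The highest liver value of both genes belonged to the control liver 902. HSPB8, which works with BAG3 in disposing of damaged filament proteins, stood at a median of 227 in liver and 5772 in muscle (-4.57). HSPB1 (HSP27), which is made in many tissues, differed less, with 733 to 7419 in liver (median 2897) and 19950 to 31350 in muscle (median 23420), a log2 difference of -3.25 ± 0.326. HSPB11, which is also a transport protein of cilia (IFT25), was the member of the group with the smallest difference, -0.85 ± 0.327 (adjusted p = 0.0293). It did not pass with edgeR (0.0951) or DESeq2 (0.0556), nor without any 1 of the animals 924 (0.1), 928 (0.1), 910 (0.0887), 977 (0.0704) or 984 (0.0792).

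HSP40 genes went both ways. Of 37 that met the mean minimum in both tissues, 10 were higher and 19 lower in liver, with a median of -0.50. The share called was 78.4%, against 68.8% of all genes. By subfamily, 1 of 4 DNAJA genes was higher and 2 lower (median -0.87), 4 of 9 DNAJB genes higher and 4 lower (median 0.071), and 5 of 24 DNAJC genes higher and 13 lower (median -0.57). DNAJB5, an HSP40 known from heart muscle, ranged from 29.9 to 63.3 in liver (median 39.6) and from 772 to 1742 in muscle (median 1148), a log2 difference of -4.68 ± 0.191 (adjusted p = 2.47e-12). DNAJA4, an HSP70 partner in the cytosol, ranged from 22.2 to 145 in liver (median 30.8) and from 260 to 1170 in muscle (median 345), a difference of -3.29 ± 0.368. DNAJC15 and DNAJC19, which help the motor that pulls proteins into mitochondria, were lower in liver by -2.22 and -1.88 on the log2 scale.

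The 4 HSP40 genes furthest toward liver had few reads in muscle. DNAJB3 ranged from 68.0 to 425 in liver (median 200) and from 0 to 2.81 in muscle, and DNAJC22, a membrane-bound DNAJ protein, from 32.0 to 583 (median 287) and from 0 to 4.21. Both met the mean minimum only through liver, and so had to differ; their log2 differences of 6.64 and 6.05 became 4.06 and 4.17 with a pseudocount of 10. DNAJC6 (auxilin, which uncoats clathrin vesicles) differed by 3.85 and also met the minimum through liver alone. DNAJC12, which assists the enzymes that hydroxylate phenylalanine and other aromatic amino acids, met it in both tissues: it ranged from 104 to 407 in liver (median 216) and from 16.7 to 32.9 in muscle (median 28.2), a log2 difference of 3.01 ± 0.191. DNAJB1, the main stress-inducible HSP40, and DNAJA1 were higher in liver by 0.81 ± 0.208 (adjusted p = 0.00246) and 1.19 ± 0.248 (adjusted p = 0.000425).

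Most chaperones of the ER were higher in liver. Of 8 ER members, 7 were higher and 1 was lower, with a median log2 difference of 1.34. HSP90B1 (GRP94), the HSP90 of the ER, ranged from 2638 to 10620 in liver (median 7260) and from 912 to 1111 in muscle (median 981), a difference of 2.62 ± 0.228 (adjusted p = 3.12e-08). HSPA5 (BiP), the HSP70 of the ER, ranged from 1609 to 10770 in liver (median 5593) and from 874 to 1088 in muscle (median 1032), a difference of 2.24 ± 0.245 (adjusted p = 4.9e-07). For both genes every liver lay above every muscle. The DNAJ proteins that serve BiP differed less: DNAJB11 by 1.73, DNAJC3 by 1.27, DNAJB9 by 1.24 and DNAJC1 by 0.70. The member of the list that was lower in liver, at -0.50 ± 0.208 (adjusted p = 0.0397), was DNAJC10, a BiP partner that reduces disulfide bonds. DNAJC10 did not pass with the animal as a block (adjusted p = 0.0529), with edgeR (0.11), with DESeq2 (0.0607), without a mean minimum (0.0501), or in 6 of the 8 fits that left out 1 animal (908, 924, 928, 918, 977 or 984; 0.0522 to 0.123), and it differed by -0.042 in the control animals alone (0.911). From outside the symbol rule, HYOU1, the exchange factor of BiP, was higher in liver by 2.48 ± 0.172, and SDF2L1, a partner of the ER HSP40 DNAJB11, by 3.55 ± 0.374.

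The cytosolic HSP90 genes went the other way from the ER one. HSP90AB1, the constitutive form, ranged from 1078 to 4578 in liver (median 2507) and from 6000 to 8336 in muscle (median 6952), a log2 difference of -1.63 ± 0.171 (adjusted p = 3.08e-07). HSP90AA1, the inducible form, differed by -1.08 ± 0.243, but its highest liver, 908 at 11460, lay above most muscles. UNC45B, the muscle-specific HSP90 partner that folds myosin, is outside the symbol rule and measured 6.88 or less in every liver and 8021 or more in every muscle; it met the mean minimum only through muscle and so had to differ. Of 17 HSP90 and HSP70 partners from a list outside the rule that met it in both tissues, 13 were lower and 1, UNC45A, was higher in liver, with a median of -1.12.

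Among 14 HSP70 genes, 4 were higher and 5 lower in liver, with a median of -0.35. The share called, 64.3%, was near the 68.8% of all genes. HSPA6, a strictly stress-inducible HSP70, ranged from 66.5 to 926 in liver (median 126) and from 19.7 to 37.6 in muscle (median 28.8), a log2 difference of 2.52 ± 0.395 (adjusted p = 2.85e-05). HSPA6 and HSPA1A are close copies of each other, and the spans of HSPA1A and HSPA1L overlap, so reads may be divided uncertainly among the 3 genes. HSPA12B, an endothelial relative of HSP70, ranged from 131 to 235 in liver and from 675 to 989 in muscle (-2.16 ± 0.142), and HSPA2 from 16.1 to 187 and from 124 to 188 (-2.04 ± 0.299). HSPA9 (mortalin), the HSP70 of mitochondria, was lower in liver by -1.08 ± 0.283, and is among the 5 of 7 mitochondrial members that were lower. Calls of HSPA1A, HSPA8 and HSPH1, which lay near the threshold, turned on single animals, and those of HSPA8 and HSPH1 also on the scaling or the tool.

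The inducible HSPA1A differed by -0.58 (adjusted p = 0.102) and passed without animal 902 (0.0433) or 908 (0.0255). The constitutive HSPA8 differed by -0.50 (adjusted p = 0.0527) and passed without animal 908 (0.0409) or 918 (0.00815). With all animals it passed in limma after TMM rescaling of the libraries (-0.51, adjusted p = 0.0445). HSPH1 differed by 0.76 (adjusted p = 0.0732) and passed without animal 924 (0.0304) or 928 (0.0463). With all animals it passed with edgeR (1.10, adjusted p = 0.0153) and DESeq2 (1.05, adjusted p = 0.00788).

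Most TRiC subunits were lower in liver. Of 9 chaperonin genes that met the mean minimum in both tissues, 5 were lower and 1, HSPD1, was higher, with a median of -0.49. Their share called, 66.7%, was near the 68.8% of all genes. CCT7 ranged from 405 to 1126 in liver and from 1367 to 1792 in muscle, a log2 difference of -1.16 ± 0.171 (adjusted p = 1.57e-05), and was the one chaperonin gene whose tissues did not overlap. CCT4 (-0.92), CCT3 (-0.90), TCP1 (-0.61) and CCT8 (-0.49) were also lower in liver, while CCT2, CCT5 and CCT6A did not pass. CCT8 lost its call with edgeR (adjusted p = 0.0618) and with limma without animal 924 (0.0723), 977 (0.0735) or 984 (0.0756). In the control animals alone TCP1 (-0.26, adjusted p = 0.225), CCT4 (-0.30, 0.228) and CCT8 (-0.22, 0.129) did not pass. CCT6B, a variant subunit best known from testis, stood at a mean of 18.9 in liver and 3.49 in muscle, and since it met the minimum only through liver it had to differ. HSPD1, the mitochondrial chaperonin, was higher in liver by 0.75 ± 0.275 (adjusted p = 0.0232), and lost that call without any 1 of the animals 908 (0.0728), 924 (0.0575), 928 (0.0601), 910 (0.0752) or 918 (0.057). Prefoldin, the complex that hands actin and tubulin to TRiC, lies outside the symbol rule: 6 of its 6 subunits tested were lower in liver, with a median of -1.68.

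Co-chaperones were lower in liver for 7 of 8 genes, with a median of -1.19. Of these, HSPBAP1 (-0.67, adjusted p = 0.0363) lost its call in 8 of 18 alternatives, among them edgeR (0.0614) and 6 of the 8 fits that left out 1 animal (902, 908, 924, 928, 977 or 984; 0.0545 to 0.0847). BAG2, an inhibitor of the ubiquitin ligase CHIP, ranged from 31.1 to 91.6 in liver (median 58.7) and from 380 to 560 in muscle (median 532), a log2 difference of -3.08 ± 0.187 (adjusted p = 3.34e-10). BAG3 ranged from 416 to 3890 in liver (median 823) and from 2805 to 4643 in muscle (median 3782), a difference of -2.09 ± 0.291 (adjusted p = 8.14e-06), and only the control liver 908 reached the muscle range. SYNPO2, with which BAG3 clears damaged filamin, is outside the rule and was lower in liver by -5.58. BAG6, which guards membrane proteins before insertion, differed by -1.52 and BAG1 by -1.22. HSPBP1, an exchange factor for HSP70, differed by -0.27 (adjusted p = 0.237). Of the heat shock factors, HSF1 (-1.66), HSF2 (-0.999), HSF4 (-1.81) and their binding protein HSBP1 (-1.44) were lower in liver, and HSF5 (3.91) was higher.

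With the 4 control animals alone, 54 of 82 members passed (19 higher and 35 lower in liver), against 59.2% of all genes. The calls lost were those of HSPA2, HSPA9, HSP90AA1, TCP1, CCT4, CCT8, DNAJB12, DNAJC10, DNAJC11, DNAJC30 and BAG4, and CCT6B was no longer tested. DNAJC30 also lost its call without animal 902 (adjusted p = 0.0588). Of the 66 members called, 15 lost the call or went untested in at least 1 of 18 alternatives. That count leaves out CRYAB and DNAJC27, which DESeq2 gave no adjusted p. Counting tests gave 65 members (23 higher and 42 lower) with both edgeR and DESeq2, against 72.7% and 71.3% of all genes, with the median of all genes at 0.20 and 0.15 in place of 0.059.

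No chaperone gene passed the threshold for BPA against control in muscle. Of 79 members tested, limma and edgeR called 0, while 0.129% of all 14706 genes passed with limma. DESeq2 called 1, HSPB1, which is 1.27% of the members, against 0.891% of all genes. At an unadjusted p under 0.05 there were 8 members, 3 higher and 5 lower in BPA animals, against 7.77% of all genes (3.76% higher and 4.01% lower). The 4 BPA muscles all lay above or all below the 4 controls for 6 members, against 4.53% of all genes (2.05% above and 2.48% below): HSPB1, DNAJC25 and BAG6 below, and DNAJB2, DNAJA1 and HSPA14 above.

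HSPB1 had the smallest p of the members in muscle. Its normalized read counts were 24710, 27090, 31350 and 29810 in the control animals 902, 908, 924 and 928, and 20640, 20420, 19950 and 22120 in the BPA animals 910, 918, 977 and 984. The control mean was 28240 ± 2936 (SD, n = 4) and the BPA mean 20780 ± 941 (SD, n = 4), and every BPA muscle lay below every control muscle. The log2 difference was -0.44 ± 0.106 (SE) with an adjusted p of 0.225 by limma. Leaving out 1 library at a time gave -0.50 to -0.39, with adjusted p-values of 0.173 to 0.597. DESeq2 gave an adjusted p of 0.000964 and limma with sample weights 0.031.

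The other small HSPs of muscle had estimates on the same side, except HSPB6 and HSPB11, and none passed. CRYAB measured 9845, 10670, 12120 and 10860 in controls and 9016, 9932, 7456 and 9020 in BPA animals. Its groups overlapped by a single BPA library, 918, which lay above the control 902, and the log2 difference was -0.30 ± 0.108 (adjusted p = 0.496). HSPB7 differed by -0.34 (adjusted p = 0.749), HSPB2 by -0.26 (0.652), HSPB3 by -0.26 (0.769), HSPB8 by -0.22 (0.797) and HSPB6 by 0.068 (0.925). The median of the 8 small HSPs was -0.26, against -0.0022 over all genes tested. HSF1 itself, outside the symbol rule, measured 1817, 1856, 1818 and 1866 in control muscles and 1358, 1505, 1580 and 1647 in BPA muscles, which did not overlap (log2 difference -0.28 ± 0.080, adjusted p = 0.343). The other regulators listed overlapped between groups: HSF2 (0.048), HSF4 (-0.039), HSF5 (-0.31) and HSBP1 (-0.13). HSF1 was thus 1 of 5 regulators without overlap. Of 18 HSP90 and HSP70 partners outside the rule, 1 did not overlap (5.56%): SGTA, which was lower (-0.19, adjusted p = 0.606). Over all genes tested the share was 4.53%.

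**Figure D2:**
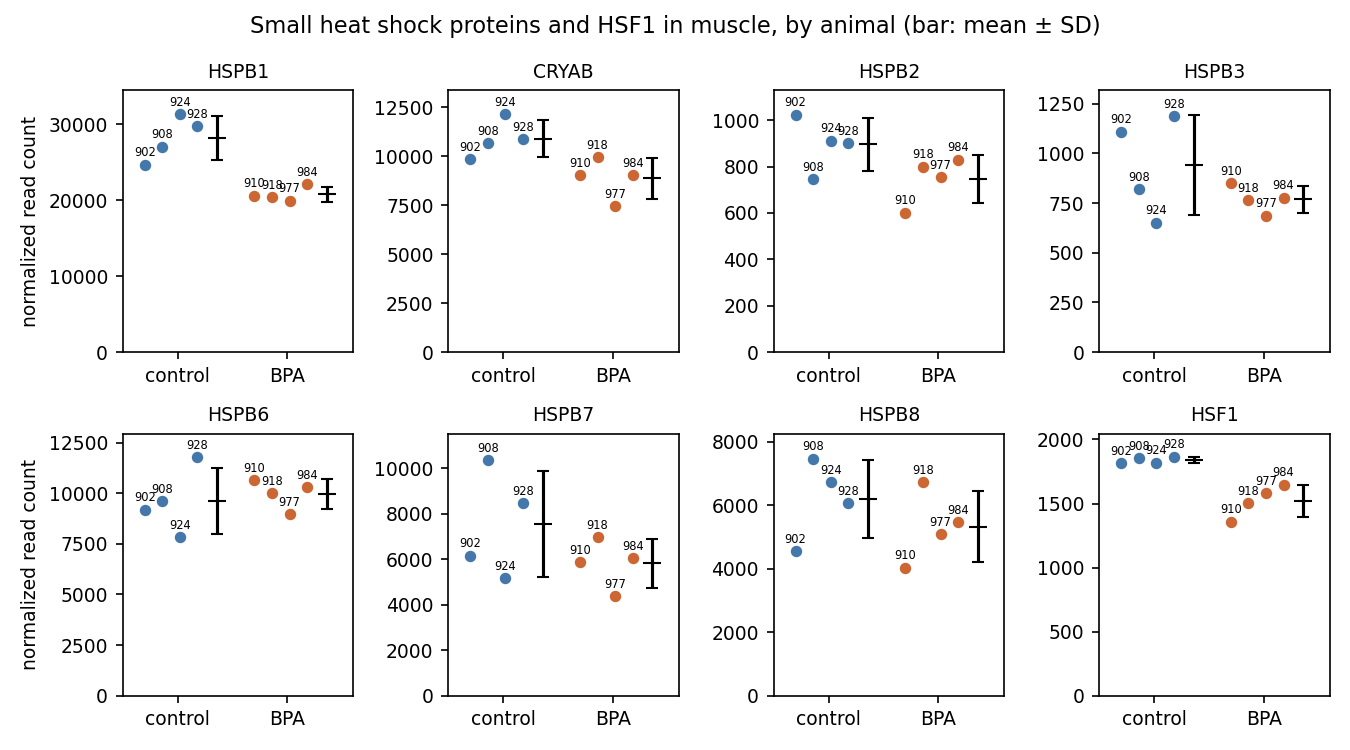
Normalized read counts (y axis, from 0) of small HSPs and HSF1 in the 4 control and 4 BPA muscles, 1 point per animal with the mean ± SD beside it. For HSPB1 and HSF1 all BPA points lie below all control points, and for the other genes shown the groups overlap.

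Medians of the remaining groups lay nearer 0 in muscle. The median log2 difference was -0.040 for HSP40, -0.039 for HSP70, -0.056 for HSP90, -0.10 for the chaperonins and -0.13 for the co-chaperones. The ER members had a median of 0.010, the mitochondrial members -0.13 and a list of heat-inducible members -0.066. That list held HSPA1A, HSPA6, HSPA8, HSPH1, HSP90AA1, HSP90AB1, HSPB1, CRYAB, HSPB8, DNAJA1, DNAJB1, DNAJB4, BAG3 and HSPD1. It is a loose list, since HSPA8 and HSP90AB1 are constitutive forms and HSPD1 is mitochondrial. Of 14 heat-inducible members, 10 had lower and 4 higher estimates, HSPA1A (0.13) and DNAJB4 (0.23) among the latter. DNAJB2, a neuronal and muscle HSP40 that sorts ubiquitinated clients, measured 749, 703, 725 and 707 in controls and 781, 945, 818 and 841 in BPA animals, so all BPA values were the higher ones (log2 difference 0.23 ± 0.083, adjusted p = 0.498). DNAJC25, a membrane DNAJ protein, measured 107, 112, 126 and 106 in controls and 79.1, 93.6, 78.6 and 96.5 in BPA animals, all of them lower (-0.37 ± 0.131, adjusted p = 0.487). BAG6 differed by -0.22 and DNAJA1 by 0.24, both with an adjusted p of 0.595, and HSPA14, a ribosome-associated HSP70, by 0.15 (adjusted p = 0.725).

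Estimates were lower in BPA muscle for 55 of 79 members, against 50.5% of all genes, with a median of -0.063. Single BPA animals bear on that count. The muscle of 910 was the lowest of the 8 for 32 members (40.51%, against 22.59% of all genes), and that of 918 the highest for 23 (29.11%, against 14.59%). Without 910 the estimate was lower for 48 members and the median was -0.029, and without 918 it was lower for 59 and the median was -0.11.

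**Figure D3:**
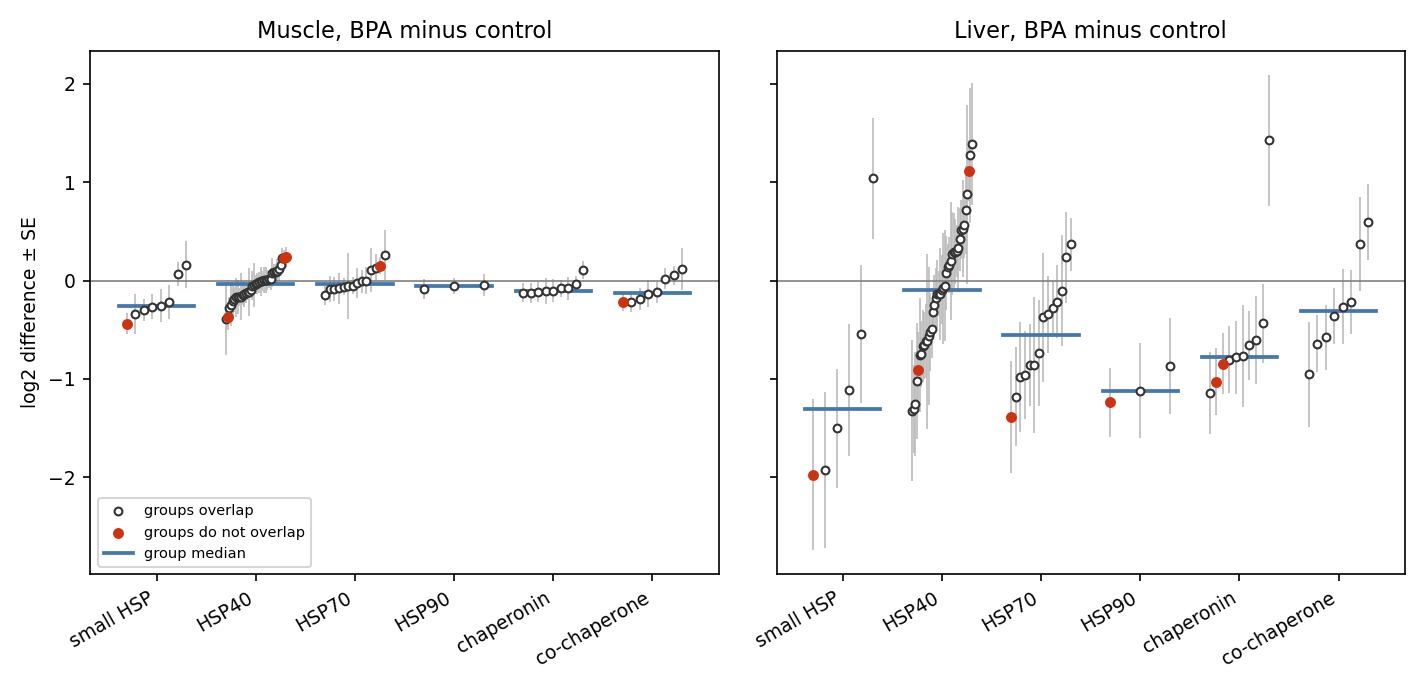
Log2 difference between BPA and control animals with its SE (y axis) for each chaperone gene, by group (x axis), in muscle and in liver on a common scale; red points are genes whose 4 BPA and 4 control libraries do not overlap, and the blue line is the group median. Points in muscle lie close to 0, and the liver points spread more widely with larger SEs, no gene of either tissue passing the adjusted p threshold.

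Liver estimates were larger and mostly lower in BPA animals, and none passed. Of 82 members tested, limma, edgeR and DESeq2 each called 0. Of all 15689 genes, limma and edgeR called 0% and DESeq2 1.21%. At an unadjusted p under 0.05 there were 16 members with limma (14 lower and 2 higher), against 18.1% of all genes (10.3% lower and 7.8% higher). With edgeR there were 14, against 2844 of all 15689 genes, and with DESeq2 17, against 3276. Estimates were lower in BPA livers for 58 of 82 members, against 50.7% of all genes, and the median log2 difference was -0.40, against -0.014. By group the medians were -1.31 for the small HSPs (5 of 6 lower), -1.12 for HSP90 (3 of 3), -0.78 for the chaperonins (9 of 10), -0.56 for HSP70 (12 of 14), -0.31 for the co-chaperones (6 of 8) and -0.093 for HSP40 (23 of 41). The 4 BPA livers did not overlap the 4 control livers for 7 of 82 members. That share, 8.54%, was near the 7.61% of all genes (3.63% higher and 3.98% lower). The 7 members were DNAJC12, the one that was higher, and HSP90AB1, CCT3, CCT5, CRYAB, HSPA2 and DNAJC10, which were lower.

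DNAJC12, the chaperone of aromatic amino acid hydroxylases, measured 104, 142, 164 and 204 in the control livers 902, 908, 924 and 928, and 407, 394, 228 and 302 in the BPA livers 910, 918, 977 and 984. Every BPA liver lay above every control liver, with a log2 difference of 1.12 ± 0.313 (adjusted p = 0.256), and of 0.94 to 1.28 when 1 library at a time was left out. HSP90AB1 measured 3669, 4578, 2652 and 3346 in controls and 2361, 1547, 1223 and 1078 in BPA animals, with a difference of -1.24 ± 0.348 (adjusted p = 0.256). The highest BPA value, in 910, stood below the lowest control value, in 924. The other 2 HSP90 genes overlapped between groups: HSP90AA1 differed by -1.12 (adjusted p = 0.271) and HSP90B1 by -0.87 (0.340).

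TRiC subunits CCT3 and CCT5 did not overlap between groups. CCT3 measured 880, 1295, 1007 and 1181 in controls and 796, 689, 432 and 331 in BPA animals, a difference of -1.03 ± 0.337 (adjusted p = 0.256). CCT5 measured 752, 1158, 946 and 1093 in controls and 745, 681, 425 and 399 in BPA animals (-0.84 ± 0.308), with the lowest control, 902, just above the highest BPA liver, 910. The BPA liver 984 was the lowest of 8 for 9 of 10 chaperonin genes, and the control liver 908 the highest for 7.

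CRYAB measured 876, 110, 83.9 and 109 in control livers and 80.2, 16.7, 37.4 and 68.0 in BPA livers, a log2 difference of -1.97 ± 0.768 (adjusted p = 0.258). HSPA2 measured 187, 57.1, 37.7 and 28.2 in controls and 16.1, 27.1, 25.0 and 20.2 in BPA animals (-1.39 ± 0.567, adjusted p = 0.265). DNAJC10 measured 631, 255, 264 and 277 in controls and 253, 223, 146 and 113 in BPA animals (-0.91 ± 0.391, adjusted p = 0.271). In all 3 genes the control liver 902 was far above the others, and it is also the liver with a fibroblast and stellate marker sum of 115100 and a smooth muscle marker sum of 10480, against 2752 to 6048 in the other livers. HSPB6, at 1217 in 902, differed by -1.93 ± 0.794 with overlapping groups. Without 902 the differences were -1.20 for CRYAB, -1.20 for HSPB6 and -0.83 for HSPA2. The part of those cell types in the result was not tested. The fibroblast and stellate genes had a median difference of -2.12 between BPA and control livers, with 8 of 8 lower, the macrophage genes -1.65 (6 of 6 lower), the cholangiocyte genes -2.09 (4 of 4), the endothelial genes -1.10 (7 of 8), the smooth muscle genes -1.01 (4 of 5) and the hepatocyte genes -0.58 (7 of 7). The muscle fibre genes that could be tested in liver went the other way, at 1.43 (4 of 4 higher), and none of these markers passed.

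**Figure D4:**
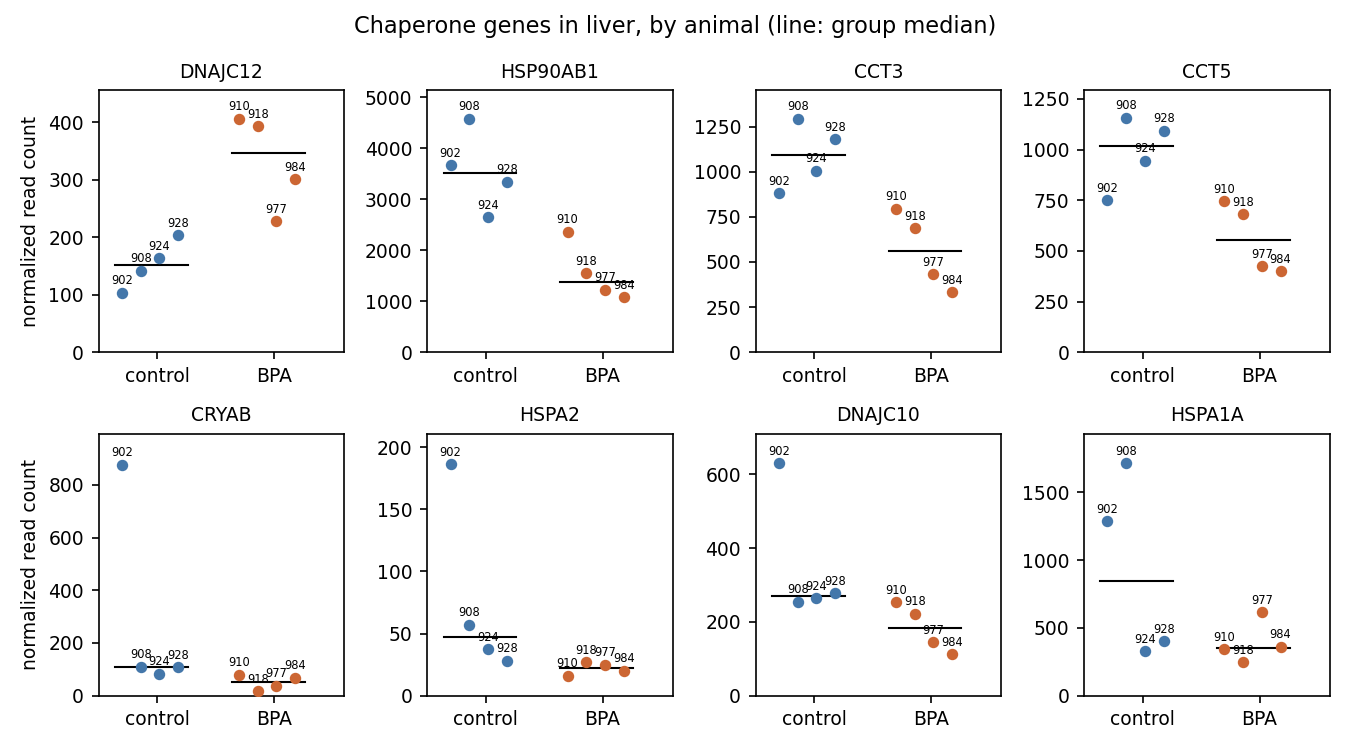
Normalized read counts (y axis, from 0) of 8 chaperone genes in the 4 control and 4 BPA livers, 1 labelled point per animal, with a line at the group median. DNAJC12 is higher in all BPA livers, the 6 genes lower in all BPA livers include 3 with a single high control (902), and HSPA1A shows the high controls 902 and 908.

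Among the genes that overlapped, HSPB1 measured 1703, 7419, 4911 and 5377 in controls and 4090, 733, 1260 and 1373 in BPA animals (-1.50 ± 0.604, adjusted p = 0.262). Control 902 was low and BPA 910 high, the reverse of their groups. HSPA5 differed by -1.18 (adjusted p = 0.268), DNAJC3 by -1.25 (0.267), CCT4 by -1.14 (0.256) and the mitochondrial import factor DNAJC15 by -1.31 (0.256). Estimates in the other direction came from DNAJB7 (1.39, adjusted p = 0.276), CCT6B (1.43, 0.287) and DNAJB3 (1.27, 0.329). From the list of partners outside the rule, the prefoldin subunits had a median of -0.86 (5 of 6 lower), the organelle partners -0.43 (9 of 9 lower) and the HSP90 and HSP70 partners -0.45 (14 of 17 lower), and none passed.

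Most genes of the heat-inducible list were highest in the control liver 908. The same liver was highest for most chaperonin and mitochondrial members, and for HSPA5, HSP90B1 and DNAJB11 of the ER. The other ER members listed were highest in other livers. Of the 14 members of the heat-inducible list, 908 was the highest of the 8 livers for 11 (78.57%, against 9.166% of all genes). HSPA1A measured 1287, 1715, 327 and 403 in controls and 342, 248, 618 and 362 in BPA animals, so 902 and 908 stood above the other 6 livers. HSPH1 measured 1242, 1709, 331 and 409 in controls and 301, 1632, 430 and 482 in BPA animals, where the BPA liver 918 joined these controls. HSPA6 reached 926 and BAG3 3890 in 908. The heat-inducible list had a median difference of -0.96, with 13 of 14 lower, and of -0.55 without 908. Without both 902 and 908 the HSP70 median went from -0.56 to -0.028.

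**Figure D5:**
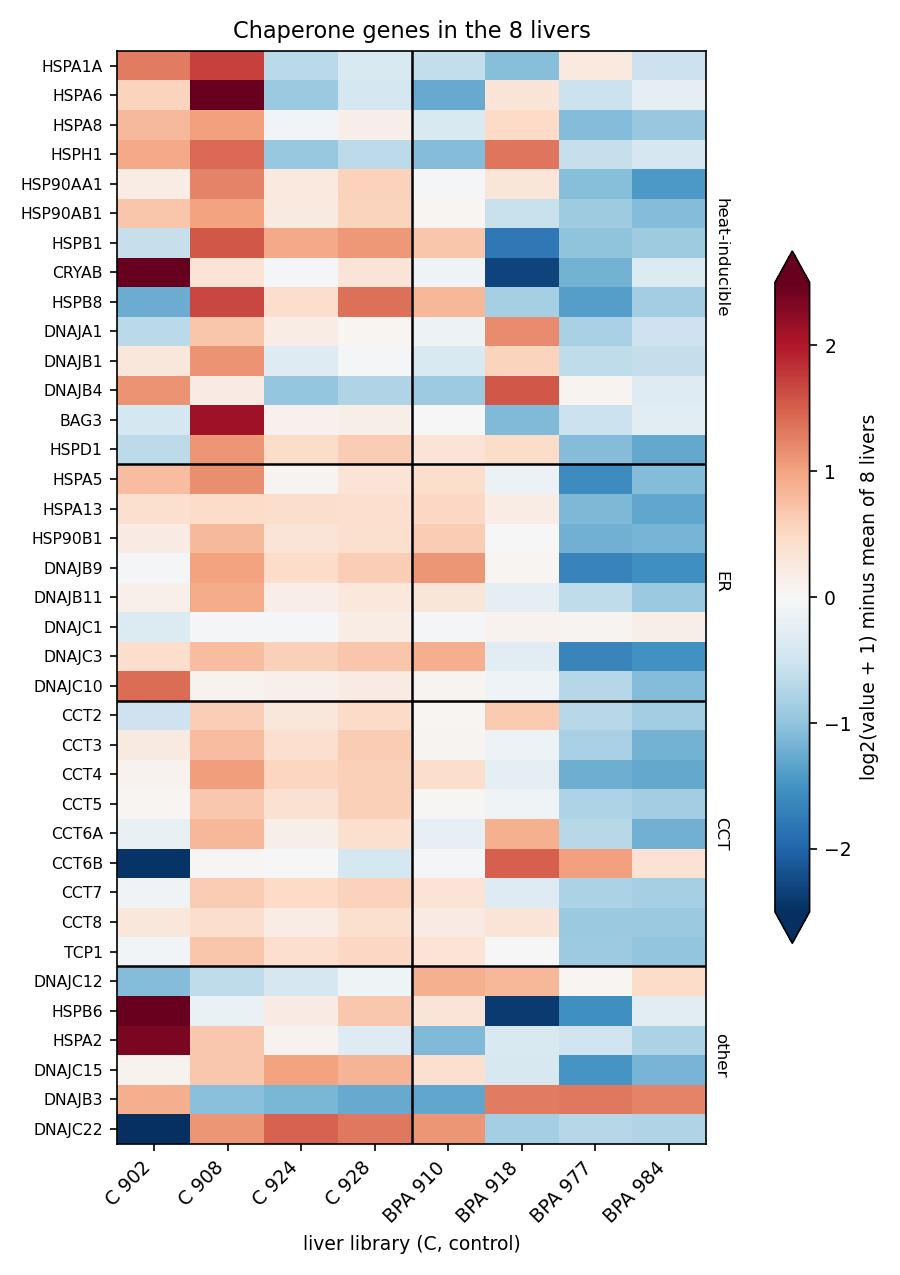
Heat map of chaperone genes (rows) in the 8 livers (columns), coloured by log2(value + 1) minus the mean of the 8 livers; the black line parts control from BPA livers. The control liver 908 is high for most heat-inducible genes, and the BPA livers 977 and 984 are low for most ER and TRiC genes, while the BPA liver 910 lies nearer the controls.

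More genes separated the livers by read depth than by treatment. The 4 livers under 15 M reads, 1 control and 3 BPA, did not overlap the 4 deeper livers for 31 of 82 members (7 higher and 24 lower in the shallower livers), against 37.5% of all genes (17.8% higher and 19.7% lower), so the members' share was near the background. Among them were 5 of 8 ER members, 5 of 7 mitochondrial members, and HSPB1, HSPB2 and HSPB8. DNAJC22 measured 32.0 in 902, 115 in 918, 126 in 977 and 123 in 984, and 449 or more in each deeper liver. DNAJB3 went the other way, at 319, 419, 425 and 403 in the shallower livers and at 68.0 to 81.9 in the deeper ones. The same 4 livers held the lower hepatocyte marker sums. The split was chosen after the values were seen, and the part of depth or cell makeup in the BPA differences was not tested beyond the values that follow.

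Within each depth class the BPA difference rests on 1 library of a group, so it has no test. Among the 4 shallower livers (3 BPA against control 902) the median over members was -0.22, and among the 4 deeper ones (BPA 910 against 3 controls) it was also -0.22. Over all genes the medians were 0.087 and -0.018. DNAJC12 was higher in BPA livers within both classes, by 1.53 and 1.27. HSP90AB1 was lower within both, at -1.53 and -0.54, as were CCT3 (-0.93 and -0.54) and CCT5 (-0.63 and -0.51). CRYAB was lower by -4.61 among the shallower livers, where 902 is the control, and by -0.32 among the deeper ones, and DNAJC10 by -2.02 and -0.067. The mitochondrial members had a median of 0.23 and -0.28, and the ER members -1.08 and 0.019, so neither list kept 1 direction. The heat-inducible members had -0.69 and -0.59, with 11 of 14 lower in both. With depth class as a term, limma called 0 members, the small HSP median went from -1.31 to -0.32, the mitochondrial median from -0.74 to 0.025, the HSP90 median from -1.12 to -0.82 and DNAJC12 from 1.12 to 1.40 ± 0.282 (adjusted p = 0.287).

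Calls in liver depended on the BPA liver 910. Without it 9 members (11%) passed with limma, against 16.5% of all genes (1155 higher and 1440 lower). Of the members, CCT3, CCT4, CCT5, CCT7, DNAJC3, DNAJC15, HSP90AB1 and HSPB1 were lower and DNAJB3 was higher. HSP90AB1 then differed by -1.46 (adjusted p = 0.0184), CCT3 by -1.22 (0.0341) and HSPB1 by -1.98 (0.0377). The deeper livers were then all controls and the BPA livers all under 15 M reads, so that, 902 aside, depth and BPA cannot be told apart there. Without both 902 and 910, 33 of 82 members passed (40.2%), against 43.1% of all genes.

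The BPA difference in liver and the BPA difference in muscle were set against each other in the 16-library fit. Of 77 members tested, limma, edgeR and DESeq2 each called 0, and limma called 0% of all 13677 genes. At an unadjusted p under 0.05 there were 13 members with limma, against 19.5% of all genes. With edgeR there were 13, against 2932 of all 13677 genes, and with DESeq2 14, against 2978. The smallest p-values belonged to DNAJC12 (1.28 ± 0.380 on the log2 scale, liver difference minus muscle difference) and HSP90AB1 (-1.15 ± 0.342), both with an adjusted p of 0.195, followed by CCT3 (-0.99, adjusted p = 0.202). In muscle these 3 genes differed between BPA and control animals by -0.16, -0.090 and -0.035. Without animal 910, 13 members passed (16.9%), against 22.1% of all genes (1296 higher and 1724 lower). For all 13 the BPA difference in liver minus that in muscle was below 0: CCT3, CCT4, CCT5, CCT7 and TCP1 of TRiC, HSPA5, HSPA13, HSP90B1, DNAJB9, DNAJB11 and DNAJC3 of the ER, and DNAJC15 and HSP90AB1.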

How the data were processed

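Total RNA of liver and vastus lateralis from 8 sheep was sequenced as ribosome-depleted, low-input libraries, per the labels' protocols, and DESeq2 1.24.0, FastQC and Trimmomatic were used, per the submitters' processing notes. The sources used here do not give an aligner, counter, annotation, genome build or strandedness. The authors deposited 1 table of normalized signal, which proved to be reads scaled by a size factor of the library. Dividing by the value of 1 read gave whole reads for at least 99.993% of values in each library (within 0.1 read). Precision follows depth, 4.39 to 19.28 M reads in liver and 15.15 to 28.54 M in muscle.

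Since the unit is a scaled count, the main test was limma 3.58.1 (R 4.3.3; eBayes with trend) on log2(value + 1), which understates changes of low genes, with a mean minimum of 10 taken over the tissue, over all 16 libraries (liver against muscle) or in each tissue (difference between BPA effects). P-values were adjusted over all genes tested (Benjamini-Hochberg, threshold 0.05). The count tests on recovered reads were edgeR 4.0.16 (quasi-likelihood) and DESeq2 1.42.0. They called 19 and 131 genes in muscle, 0 and 190 in liver, 11622 and 11412 between tissues and 0 and 148 for the difference. Of the members 80 were found in the RefSeq gene table, which was used for names and neighbours. CRYAB lies next to HSPB2, and counting without strand could mix neighbours.

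Each sheep number marks 1 animal in both tissues, per the labels, so liver and muscle are paired. Deviations from group means correlated by -0.10 to 0.12 between an animal's tissues, across genes, and 1 of 8 animals correlated best with its own. Named genes were a panel of members, the 2 members past the threshold with the largest difference per group and direction between tissues, and otherwise the smallest p-values per direction (4 to 10). Other members named for an odd library, for groups that do not overlap or for their place in a group, the smooth muscle markers and the depth split were chosen after values were seen. The members and lists were chosen with earlier results of these data known. The scripts were tested on simulated data. Other pseudocounts, filters, scalings and weights, an animal block, a depth term, and leaving out libraries were tried as alternatives. Promoter and protein sequences were not analysed here.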

Additional observations from a re-analysis of the deposited data

Results flagged for a closer look

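Among the 47 members that the naming rule took, 176 gene and group pairs were examined for a library whose gap to the nearest of the other 3 exceeded Dixon's 95% limit as a share of the group's range, which chance passes in about 1 of 20 groups. It was passed in 13, 11 of them in liver.

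In control livers, animal 902 was high for CRYAB (876.2, the others 83.88 to 110.1), HSPB6 (1217, the others 119.7 to 215.4) and DNAJB3 (318.5, the others 70.46 to 81.88). Animal 908 was high for BAG3 (3890, the others 659.5 to 989.2).

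In BPA livers, 918 was high for HSPH1 (1632, the others 301.1 to 482.1), HSPA4 (1324, the others 436.8 to 526.6), DNAJB1 (1326, the others 578.8 to 687.8) and HSPA14 (776.6, the others 452.4 to 506.5). Animal 910 was high for DNAJC22 (448.6, the others 114.5 to 126) and HSPB8 (419.6, the others 91.07 to 133.2) and low for DNAJB3 (68.02, the others 403.2 to 425.4).

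In muscle, the control 908 was high for DNAJA4 (1170, the others 329.7 to 354.3) and the BPA animal 910 low for DNAJC12 (16.71, the others 28.07 to 28.39).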

How the results depend on the processing

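Pairs of a gene and an alternative were formed for the genes of the naming rule, the members called between tissues, those whose BPA and control groups do not overlap, and genes named from outside the rule. Of 3143 pairs with an adjusted p, 2979 kept their direction and side of the threshold, 46 lost a call, 89 gained one and 29 changed sign. In muscle, members past the threshold numbered 1 with DESeq2 (1.27%, against 0.891% of all genes) and 2 with sample weights (2.53%, against 2.56%). In liver they numbered 16 in one 16-library fit (19.5%, against 14.7%), 53 with weights (64.6%, against 61.1%) and 33 without 902 and 910 (40.2%, against 43.1%). Liver medians became -0.36 (HSP40) and -1.27 (chaperonin) with weights, -0.028 (HSP70) without 902 and 908, -0.28 (HSP40) without 902 and 910, and -0.32 (small HSP) with a depth term. Between tissues, medians became -6.16 (small HSP, -5.57 over the 8 tested) with a mean minimum of 50, and -5.00 (small HSP), -0.54 (HSP90) and -0.91 (co-chaperone) in controls alone. Signs changed for HSPA2 in muscle with weights (0.083), and in liver for DNAJA1 with DESeq2 (0.028), HSPA1A (0.032) and HSPH1 (0.62) without 902 and 908, HSPH1 without 902 and 910 (0.18), and HSPB2 (0.37), DNAJA1 (0.090) and HSPA9 (0.025) with the depth term. Leaving out 1 library or animal gave 0 to 9 members in liver, 0 to 13 for the difference between BPA effects, 62 to 66 between tissues, and a small HSP median of that difference of -1.52 to -0.70. Ranges that crossed 0 were, in liver, DNAJA1 -0.55 to 0.11 and HSPH1 -0.88 to 0.033; in muscle, DNAJB1 -0.11 to 0.046, DNAJB9 -0.059 to 0.094, HSP90AA1 -0.11 to 0.025, HSPA2 -0.12 to 0.078, HSPA4 -0.20 to 0.0041, HSPB6 -0.025 to 0.17 and HSPH1 -0.20 to 0.021; and for the difference, HSPB2 -1.09 to 0.059 and HSPH1 -0.76 to 0.23. With the animal as a replicate block, 65 members passed between tissues, DNAJC10 being the call lost, and 0 for the difference (11 at an unadjusted p under 0.05). The cause of these changes was not tested. Shallow livers limit the precision of every liver value.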
